A study of Mus musculus with 16 samples.

Results

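Qa and T region genes of the major histocompatibility complex (MHC) encode non-classical class I heavy chains. Transcripts of 5 of them, H2-T23, H2-T22, H2-Q4, H2-Q6 and H2-Q7, were followed across 16 mouse melanoma tumours. They were chosen by symbol, and all 5 of the 5 were found among the 16094 genes of the deposited table and passed the filter on low values, as 14672 of the 16094 genes did. H2-Q7 and H2-Q6 were the members that rose: both were higher in tumours carrying a hairpin against Mdk than in control-hairpin tumours treated with the same anti-PD1 antibody. H2-Q4, H2-T22 and H2-T23 did not pass the main test, on all 16 tumours, in any of the 6 comparisons. When 5 libraries with a GC trend (described below) were left out, H2-T22 also passed between hairpins, under anti-PD1 and averaged over both antibodies.

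The tumours were grown in mice from B16R2L, a line of the B16 mouse melanoma family. Before grafting, the cells had been given a control hairpin RNA with no target (shCtrl) or one that targets Mdk (shMdk). Mdk encodes midkine, a secreted growth factor. From a tumour volume of 100 mm3, mice received the anti-PD1 antibody RMP1-14 or its IgG2a control 2 times a week for 2 weeks, and PD1 is an inhibitory receptor of T cells. The anti-PD1 dose is 10 mg/kg in the sample labels, the design text gives the same figure in grams, and no dose is listed for IgG2a. The 4 groups were shCtrl with IgG2a, shCtrl with anti-PD1, shMdk with IgG2a and shMdk with anti-PD1, with 4 tumours in each, and every tumour came from hairpin-carrying cells. The strain, age and sex of the mice are not given in the sources used here. Each line carried 1 hairpin, so a difference between the hairpin lines and an effect of Mdk loss cannot be told apart. Tumour numbers follow accession order and pair nothing, and p-values are set against the spread between tumours.

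Class I heavy chains pair with the light chain beta-2 microglobulin, the product of B2m. The classical heavy chains H2-K and H2-D show peptides from inside the cell to CD8 T cells. Non-classical chains vary little between individuals and often serve receptors other than the usual T cell receptor. H2-T23 encodes the heavy chain of Qa-1, which presents leader peptides of classical class I proteins to the inhibitory receptor CD94/NKG2A and the activating receptor CD94/NKG2C of NK and T cells. H2-T22 encodes a chain that holds no peptide and is bound by some gamma delta T cell receptors. H2-Q6 and H2-Q7 encode Qa-2, which sits on the membrane through a lipid anchor, and H2-Q4 encodes Qb-1. Interferons raise class I transcription through response elements upstream of the gene start, and the factors IRF1 and NLRC5 act on such promoters.

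The 5 genes lie on chromosome 17 (GRCm38). H2-Q4 (ENSMUSG00000035929.11) spans 35379617 to 35385290, H2-Q6 (ENSMUSG00000073409.12) 35424850 to 35430055 and H2-Q7 (ENSMUSG00000060550.16) 35439155 to 35443773, all on the plus strand. H2-T23 (ENSMUSG00000067212.8) spans 36029773 to 36032855 and H2-T22 (ENSMUSG00000056116.18) 36037128 to 36042747, both on the minus strand. All 5 are annotated as protein-coding. The classical genes H2-K1 and H2-D1 lie on the same chromosome, and B2m lies on chromosome 2.

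The sequences before the gene starts are shown for H2-Q4, H2-Q6 and H2-Q7, whose promoters are close relatives while their transcripts moved by different amounts, and for H2-T22 as a more distant relative. They come from RefSeq (GRCm38.p6), at chr17:35379367-35379616 for H2-Q4, chr17:35424600-35424849 for H2-Q6, chr17:35438905-35439154 for H2-Q7 (plus strand) and chr17:36042748-36042992 for H2-T22 (minus strand), each written 5′ to 3′. Capitals mark matches, on either strand, to 4 motifs. They are GGG and TCCC 3 bases apart (the kappa B site type), CAGTTTCACTTCTGC (the run around the interferon consensus sequence that the H2-Q4, H2-Q6 and H2-Q7 windows share with H2-K1 and H2-D1), GAAA repeated after 2 bases of any kind (the core of the interferon-stimulated response element) and CCAAT (the Y box type).
H2-Q4: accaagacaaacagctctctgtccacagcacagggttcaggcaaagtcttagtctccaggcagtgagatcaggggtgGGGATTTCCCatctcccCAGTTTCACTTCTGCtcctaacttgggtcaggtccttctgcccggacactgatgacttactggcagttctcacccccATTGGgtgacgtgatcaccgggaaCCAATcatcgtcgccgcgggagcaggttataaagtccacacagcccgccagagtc
H2-Q6: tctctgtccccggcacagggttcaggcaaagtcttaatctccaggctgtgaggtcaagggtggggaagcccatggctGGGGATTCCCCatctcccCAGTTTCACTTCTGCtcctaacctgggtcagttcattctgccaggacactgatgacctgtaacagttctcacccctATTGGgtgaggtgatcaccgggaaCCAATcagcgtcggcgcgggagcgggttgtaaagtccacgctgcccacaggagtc
H2-Q7: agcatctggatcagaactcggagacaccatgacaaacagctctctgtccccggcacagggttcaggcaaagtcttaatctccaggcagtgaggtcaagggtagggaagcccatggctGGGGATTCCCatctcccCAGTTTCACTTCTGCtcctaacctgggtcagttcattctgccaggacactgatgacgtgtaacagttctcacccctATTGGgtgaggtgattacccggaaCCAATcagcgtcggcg
H2-T22: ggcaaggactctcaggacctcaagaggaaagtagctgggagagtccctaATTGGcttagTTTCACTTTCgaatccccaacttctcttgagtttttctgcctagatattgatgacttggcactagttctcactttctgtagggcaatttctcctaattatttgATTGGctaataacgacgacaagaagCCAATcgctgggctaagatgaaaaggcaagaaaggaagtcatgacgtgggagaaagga
Each of the H2-Q4, H2-Q6 and H2-Q7 windows held the kappa B type, the shared run and CCAAT in the same order. Over the 32851 RefSeq promoter windows of 250 bases, 4.77% held the kappa B type and 33.9% held CCAAT. CAGTTTCACTTCTGC, which was added after the sequences were seen, stood in 7 of the 32851 windows (0.0213%). Of those 7, H2-K1 (2 windows), H2-D1, H2-Q4, H2-Q6 and H2-Q7 held it by the choice of the run, and the other belonged to H2-Q10. The H2-T22 window held the response element core, present in 2.98% of all windows, and CCAAT. No match to TTCNNNGAA (the gamma-activated site, in 7.02% of windows) or to TGACGTCA (the X2 box type, in 1.55%) stood in the windows of the 5 genes, and the 96 bases left for H2-T23 after trimming held none of the motifs. Where H2-Q6 and H2-Q7 windows aligned, 97.6% of 210 bases were identical, against 88.9% of 234 between H2-Q4 and H2-Q6 and 89.5% of 210 between H2-Q4 and H2-Q7. A match describes letters in the window and does not show a bound site.

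RNA was read from the 3′ end of transcripts, so counts do not scale with transcript length, and values are read counts divided by a size factor per tumour (normalised counts). Recovered reads ranged from 5686405 to 8886334 per tumour. RNA integrity numbers averaged 8.6 and ranged from 5.8 to 9.2 per the submitters' protocol, and were not used as a covariate. Mdk, the targeted gene, was at 601 to 1161 and 606 to 1104 normalised counts in shCtrl tumours (IgG2a, then anti-PD1) and at 121 to 323 and 96.5 to 312 in shMdk tumours, without overlap (log2 fold change -2.16 ± 0.36 and -2.17 ± 0.36, SE). All 7 melanoma markers were present in every group, and none of 4 keratinocyte markers was listed. Reads of Gm42418, whose gene model lies over ribosomal RNA sequence, made up 4.47% of tumour 2 of shCtrl anti-PD1 and 3.17% of tumour 1 of shMdk IgG2a, against at most 1.56% elsewhere. In 5 tumours (shCtrl IgG2a 1 and 2, shMdk IgG2a 3 and 4, shMdk anti-PD1 1) expression rose with the GC content of 3′ ends, with slopes of 0.0880 to 0.187 log2 units per 10% GC against -0.129 to -0.000445 in the other 11. Results that rest on these libraries are given with and without them.

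The Mdk hairpin was compared with the control hairpin first under IgG2a, without PD1 blockade. None of the 5 members passed the limma test there (adjusted p under 0.05), where 1.74% of all 14672 genes tested did. Under anti-PD1, 2 of 5 rose, H2-Q6 and H2-Q7, beside 5.93% of all genes called and 4.93% called higher. Averaged over both antibodies, which reuses these tumours, the same 2 of 5 rose, beside 8.4% of all genes called and 6.23% called higher. The median log2 fold change of the 5 was 0.92 under IgG2a, 1.13 under anti-PD1 and 1.02 averaged, while the median of all genes was -0.01, -0.02 and -0.02. These medians cover genes that overlap in sequence, so they describe the list and add no test.

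**Figure D1:**
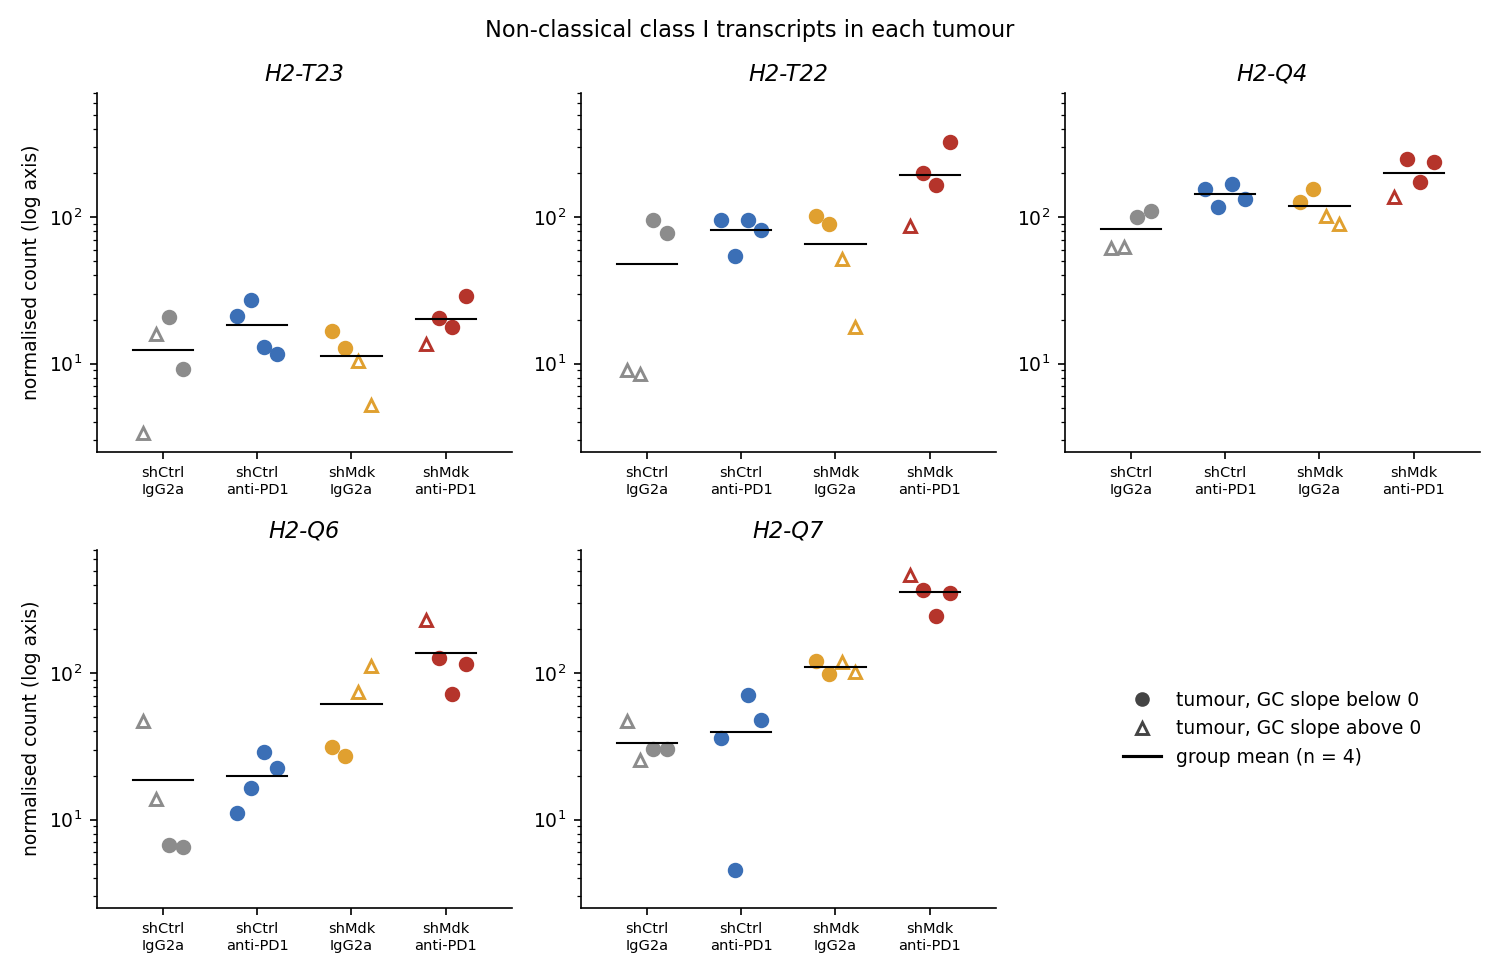
Normalised counts (log axis) of each of the 5 genes in all 16 tumours, by hairpin and antibody. Black lines are group means (n = 4), and open triangles are the 5 tumours with a GC slope above 0. All 4 H2-Q7 values of shMdk anti-PD1 tumours lie at 247 to 465, above those of the other 12 tumours, while the H2-T23 values of all groups overlap between 3.38 and 28.8.

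H2-Q7, a Qa-2 heavy chain gene, had the largest fold change of the 5 under anti-PD1. With IgG2a, shCtrl tumours 1 to 4 had 47.3, 25.6, 30.4 and 30.5 normalised counts, and shMdk tumours 1 to 4 had 121, 98.2, 119 and 102. With anti-PD1, the 4 shCtrl tumours had 35.9, 4.50, 70.7 and 47.6, and the 4 shMdk tumours 465, 370, 247 and 351. Every shMdk tumour lay above every shCtrl tumour under either antibody, as in 6.09% (IgG2a) and 13.4% (anti-PD1) of all genes the groups did not overlap. Means of the shCtrl and shMdk groups were 33.4 ± 9.51 and 110 ± 11.8 (SD, n = 4) with IgG2a, and 39.7 ± 27.5 and 359 ± 89.3 with anti-PD1.

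Under anti-PD1 the log2 fold change of H2-Q7 was 3.60 ± 0.53 (SE, limma adjusted p = 9.47e-04). Averaged over both antibodies it was 2.66 ± 0.38 (adjusted p = 1.78e-04), and the exact permutation test with hairpins exchanged within each antibody gave p = 4.08e-04, the smallest that 4900 arrangements allow. Under IgG2a alone it was 1.72 ± 0.53, which missed the threshold (adjusted p = 0.151), although the groups did not overlap (exact p = 0.0286, the smallest of 70 arrangements). It passed with only the IgG2a tumours in the fit (adjusted p = 0.00856, 1.19% of all genes called), with edgeR (0.0379, 1.71%), with DESeq2 (0.00125, 3.06%) and without the Gm42418-rich tumours (0.00442, 1.79%). The shCtrl anti-PD1 tumour 2, high in Gm42418, held only 3 H2-Q7 reads. Without it the fold change under anti-PD1 was 2.80 (adjusted p = 5.53e-05).

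H2-Q6, the neighbouring Qa-2 gene, showed the same order of group means. With IgG2a it stood at 47.3, 13.9, 6.66 and 6.46 normalised counts in the shCtrl tumours and at 31.2, 27.3, 74.9 and 111 in the shMdk tumours. With anti-PD1, shCtrl tumours were at 11.04, 16.5, 28.8 and 22.5 and shMdk tumours at 232, 127, 72.0 and 115. The IgG2a groups overlapped through shCtrl tumour 1, and the anti-PD1 groups did not overlap, as 13.4% of all genes did not. Means of the shCtrl and shMdk groups were 18.6 ± 19.4 and 61.2 ± 39.8 (SD, n = 4) with IgG2a, and 19.7 ± 7.66 and 137 ± 68.0 with anti-PD1. Its log2 fold change was 2.69 ± 0.57 under anti-PD1 (limma adjusted p = 0.00825) and 2.29 ± 0.40 averaged over both antibodies (adjusted p = 0.00111, exact permutation p = 0.00122). Under IgG2a it was 1.89 ± 0.57 (adjusted p = 0.134), and without shCtrl IgG2a tumour 1 it became 2.48 (adjusted p = 0.0129, with 1.85% of all genes called).

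The Qa-2 genes are near-identical over much of their coding sequence, so reads could be assigned to either copy. Of the 50-base words in the last 500 bases of the longest H2-Q7 transcript, 6.21% also occurred in another gene, H2-Q5 or H2-Q10. The long H2-Q6 transcript (2085 bases) shared none of its words with H2-Q7, but its short form of 981 bases shared 47.9%. That short form also shared 18.85% of its words with H2-D1 and 10.2% with H2-K1. For H2-Q4, the long H2-Q6 form and H2-T23, 33.7%, 35.9% and 38.1% of the words stood in transcripts of some other gene. Summing H2-Q6 and H2-Q7 removes that doubt between them, but not the doubt from words shared with other genes. The sum was 52.0 ± 28.4 in shCtrl IgG2a, 59.4 ± 33.4 in shCtrl anti-PD1, 171 ± 39.8 in shMdk IgG2a and 495 ± 156 in shMdk anti-PD1 tumours (SD, n = 4). The lowest shMdk sum was 126 under IgG2a and 319 under anti-PD1, each above the highest shCtrl sum of its antibody (94.6 and 99.5). In these comparisons 6.09% (IgG2a) and 13.4% (anti-PD1) of all genes did not overlap. As 1 gene, the sum rose under IgG2a as well (log2 fold change 1.80 ± 0.40, limma adjusted p = 0.0248, with 1.74% of all genes called), and by 3.19 under anti-PD1 (adjusted p = 3.26e-04, with 5.92% called).

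The division of these reads between the copies differed between libraries. H2-Q6 took 33.3% to 52.2% of the H2-Q6 and H2-Q7 reads in the 5 tumours with a positive GC slope. In 10 of the other 11 it took 17.5% to 32.1%. The exception was shCtrl anti-PD1 tumour 2, with 11 of 14 reads, or 78.6% (95% Wilson interval 52.4% to 92.4%, counting error only). The last 300 bases of H2-Q6 had a GC content of 53%, against 46.7% for H2-Q7, 44.7% for H2-Q4, 37.7% for H2-T22 and 36.7% for H2-T23. Without the 5 tumours, H2-Q7 still rose under anti-PD1 (log2 fold change 3.46, limma adjusted p = 0.0116, with 4.26% of all genes called), as did H2-Q6 (2.39, 0.00394). Averaged they were at 2.63 (0.0123) and 2.19 (0.00138), where 5.1% of all genes were called, and under IgG2a, where neither passed, at 1.81 (0.387) and 2.00 (0.0721). Calls of both genes under anti-PD1 and averaged over antibodies held in every alternative that was run.

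H2-Q4, the Qb-1 gene, had positive fold changes below the threshold. The shCtrl tumours with IgG2a had 61.9, 62.9, 99.9 and 110 normalised counts, and the shMdk tumours with IgG2a had 128, 156, 102 and 90.4. With anti-PD1 the shCtrl values were 155, 117, 167 and 133 and the shMdk values 137, 252, 174 and 240. The hairpin groups overlapped under both antibodies. Means of the shCtrl and shMdk groups were 83.6 ± 24.9 and 119 ± 28.9 (SD, n = 4) with IgG2a, and 143 ± 22.5 and 200.5 ± 54.4 with anti-PD1. Its log2 fold change was 0.52 ± 0.25 under IgG2a (limma adjusted p = 0.517), 0.45 ± 0.25 under anti-PD1 (0.370) and 0.49 ± 0.18 averaged (0.103). Its 95% interval for the average was 0.12 to 0.86, and the exact permutation test of this single value gave p = 0.0188, unadjusted. Without the 5 tumours with a positive GC slope, H2-Q4 was at 0.43 under IgG2a, 0.62 under anti-PD1 and 0.52 averaged (limma adjusted p = 0.490, 0.0832 and 0.0707).

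H2-T22, the gamma delta T cell ligand gene, split within the IgG2a groups. With IgG2a, shCtrl tumours read 9.01, 8.53, 96.1 and 78.5 normalised counts and shMdk tumours 102, 90.0, 52.1 and 17.9. With anti-PD1 the shCtrl tumours read 95.6, 54.0, 95.8 and 81.8 and the shMdk tumours 87.4, 202, 165 and 324. In each group that held them, tumours with a positive GC slope had the lowest H2-T22 values. The log2 fold change was 0.92 ± 0.70 under IgG2a (limma adjusted p = 0.804), 1.13 ± 0.70 under anti-PD1 (0.448) and 1.02 ± 0.50 averaged (0.251). Without the 5 tumours, H2-T22 passed under anti-PD1 at 1.46 ± 0.26 (adjusted p = 0.00892, with 4.26% of all genes called) and averaged at 0.80 ± 0.21 (0.0494, with 5.1% called), and was at 0.14 ± 0.34 under IgG2a (0.894). The 3′ end of H2-T22 shared 59.2% of its 50-base words with H2-T10, so the counts of these copies are uncertain. H2-T10, which also encodes a ligand of gamma delta T cell receptors, was at 9.02 ± 2.49, 14.2 ± 2.49, 14.8 ± 5.49 and 28.0 ± 11.6 in the groups, in the order shCtrl IgG2a, shCtrl anti-PD1, shMdk IgG2a and shMdk anti-PD1 (SD, n = 4).

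H2-T23, the Qa-1 gene, had 253 recovered reads over all 16 tumours. The 4 shCtrl IgG2a tumours had 3.38, 15.99, 20.9 and 9.23 normalised counts, and the 4 shMdk IgG2a tumours had 16.7, 12.7, 10.4 and 5.26. With anti-PD1 the shCtrl tumours had 21.2, 27.02, 13.02 and 11.7, and the shMdk tumours 13.6, 20.6, 17.8 and 28.8. All groups overlapped. The log2 fold change was 0.01 ± 0.48 under IgG2a, 0.17 ± 0.48 under anti-PD1 and 0.09 ± 0.34 averaged (limma adjusted p = 0.999, 0.912 and 0.922), and the 95% interval of the average ran from -0.63 to 0.81. Single tumours held 3 to 34 reads of the gene. The sign under IgG2a turned when any of 4 of the 8 IgG2a tumours was left out, and with edgeR and DESeq2.

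**Figure D2:**
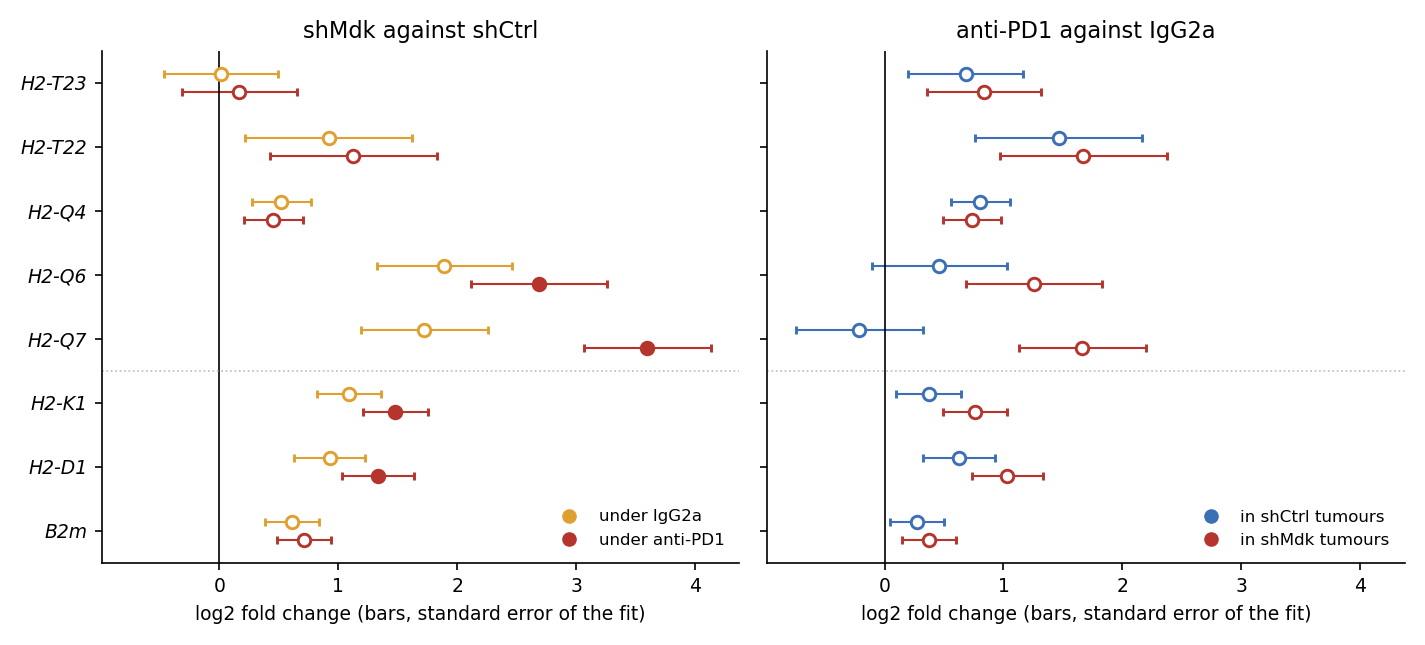
Log2 fold changes with standard errors of the limma fit for the 5 non-classical genes and, below the dotted line, H2-K1, H2-D1 and B2m. The left panel compares shMdk with shCtrl and the right panel anti-PD1 with IgG2a; filled points passed at an adjusted p under 0.05. Filled points occur only for shMdk against shCtrl under anti-PD1, for H2-Q6, H2-Q7, H2-K1 and H2-D1.

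The antibody effect was compared within each line. These comparisons share groups with those above (shCtrl IgG2a or shMdk anti-PD1 tumours stand on one side of both), so their values are set side by side and not counted as separate evidence. In shCtrl tumours 0 of 5 members passed with limma, as did 0% of all 14672 genes, while 556 genes had an unadjusted p under 0.05. edgeR called 0% of genes there and DESeq2 0.0477% (7 genes, none of them a member). H2-Q4 was higher in all 4 anti-PD1 tumours than in any IgG2a tumour of that line, as 2.11% of all genes showed no overlap. Its log2 fold change was 0.80 ± 0.25 (limma adjusted p = 0.798, exact permutation p = 0.0286). Without the 5 tumours with a positive GC slope, H2-Q4 was at 0.43 ± 0.21 (limma adjusted p = 0.99955). H2-T22 was at 1.46 ± 0.70, which became -0.12 without the 5 tumours with a positive GC slope, of which 2 are shCtrl IgG2a tumours. H2-T23 was at 0.68 ± 0.48, H2-Q6 at 0.46 ± 0.57 and H2-Q7 at -0.21 ± 0.53. The sign of H2-Q7 turned with edgeR (0.31) and DESeq2 (0.28), and without shCtrl anti-PD1 tumour 2 (0.59).

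In shMdk tumours 0 of 5 members passed for anti-PD1 against IgG2a, beside 0.0341% of all genes (5 of 14672). H2-Q7 was the member without overlap: the 4 anti-PD1 values of 247 to 465 lay above the 4 IgG2a values of 98.2 to 121, as 8.51% of all genes did not overlap. Its log2 fold change was 1.66 ± 0.53 (limma adjusted p = 0.251). It passed with only the shMdk groups in the fit (adjusted p = 0.0124, with 0.17% of all genes called), with DESeq2 (0.00234, with 1.66%) and without the Gm42418-rich tumours (1.71, adjusted p = 0.0382, with 0.075%). It did not pass without the 5 tumours with a positive GC slope (1.53, limma adjusted p = 0.485). Nor did it pass in any of the 8 fits that each left out a tumour (limma adjusted p = 0.239 to 0.522). H2-T22 was at 1.67 ± 0.70, H2-Q6 at 1.26 ± 0.57, H2-T23 at 0.84 ± 0.48 and H2-Q4 at 0.74 ± 0.25 (adjusted p = 0.353, 0.380, 0.465 and 0.266).

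Whether anti-PD1 acted differently in the lines was tested by the difference between its effects. For H2-Q7 this difference was 1.87 ± 0.75 on the log2 scale (limma unadjusted p = 0.0235, adjusted p = 0.9998), and without a tumour it ranged from 1.08 to 2.31. H2-Q6 differed by 0.80 ± 0.80, H2-T22 by 0.21 ± 0.99, H2-T23 by 0.15 ± 0.68 and H2-Q4 by -0.07 ± 0.35. Of all 14672 genes 0% passed with limma (506 had an unadjusted p under 0.05), and edgeR and DESeq2 each called 0. A different response of the lines was not detectable for any member.

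Ordered by group mean, H2-Q7 ran from shCtrl IgG2a (33.4) through shCtrl anti-PD1 (39.7) and shMdk IgG2a (110) to shMdk anti-PD1 (359). The last 2 steps showed no overlap between neighbours, as 9.85% and 8.51% of all genes showed none, and the first did. H2-Q6 had the same order, and each neighbouring pair overlapped. H2-Q4 and H2-T22 ran from shCtrl IgG2a through shMdk IgG2a and shCtrl anti-PD1 to shMdk anti-PD1, with overlap at every step. H2-T23 was lowest in shMdk IgG2a tumours (11.3 ± 4.77) and highest in shMdk anti-PD1 tumours (20.2 ± 6.404), and each neighbouring pair overlapped.

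Set against the classical heavy chains of the same tumour, the members diverged. H2-K1 rose in shMdk tumours averaged over both antibodies (log2 fold change 1.28 ± 0.19, limma adjusted p = 2.74e-04), as did H2-D1 (1.13 ± 0.21, 0.00200) and B2m (0.66 ± 0.16, 0.0135). Each member was divided by the sum of H2-K1 and H2-D1, or by B2m, within its tumour, and 50 exact permutation tests were adjusted together. Averaged over antibodies, 3 of the 50 passed, each in the comparison of shMdk with shCtrl, and the comparisons within 1 antibody or 1 line could not, since 70 arrangements give at best an adjusted p of 0.1099 here.

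H2-Q7 rose by more than the classical chains. With IgG2a, its count was 0.550% to 1.32% of H2-K1 plus H2-D1 in the shCtrl tumours and 1.04% to 1.49% in the shMdk tumours. With anti-PD1 the shCtrl range was 0.160% to 0.849% and the shMdk range 1.71% to 2.77%, without overlap. The share of all genes whose ratio to these chains did not overlap was not computed. The log2 ratio differed by 1.45 averaged over antibodies (exact permutation p = 0.00122, adjusted p = 0.0204). Against B2m it differed by 2.00 (adjusted p = 0.0102). Without the Gm42418-rich tumours the ratio to the classical chains differed by 1.20 (adjusted p = 0.0544), and without the 5 tumours with a positive GC slope by 1.56 (0.0794).

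H2-Q4 had a smaller fold change than the classical chains, so its ratio to them was lower in shMdk tumours. Averaged over antibodies, its own log2 fold change was 0.49, against 1.28 for H2-K1 and 1.13 for H2-D1. Because this denominator rose, a gene without change would also have a lower ratio. The share of all genes with a lower ratio, or with ratios that did not overlap between groups, was not computed. With IgG2a it was 1.72% to 2.17% of their sum in the shCtrl tumours and 0.907% to 1.65% in the shMdk tumours. With anti-PD1 the shCtrl range was 1.65% to 4.16% and the shMdk range 0.814% to 1.54%. Every shMdk tumour lay below every shCtrl tumour of its antibody. The log2 ratio was lower by an average difference of -0.72 (exact permutation p = 4.08e-04, adjusted p = 0.0102), which was -0.18 against B2m (adjusted p = 0.563). Without the 5 tumours with a positive GC slope it was -0.55 (adjusted p = 0.119).

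H2-T23, at 0.0769% to 0.959% of the classical sum, had a log2 ratio difference of -1.12 (exact permutation p = 0.0106, adjusted p = 0.106). Its own log2 fold change, averaged over antibodies, was 0.09. The ratio difference passed with a pseudocount of 5 (-1.155, adjusted p = 0.0204) and without shCtrl IgG2a tumour 1 (-1.30, 0.0367). H2-Q6 had a difference of 1.08 (adjusted p = 0.195). Its ratio to B2m, at 1.63 (0.0765), passed without shCtrl IgG2a tumour 1 (1.93, 0.0153). H2-T22 was at -0.19 (adjusted p = 0.812). Without the 5 tumours with a positive GC slope, 0 of the 50 tests passed, with H2-Q7 against B2m at 2.06 (adjusted p = 0.0794). The smallest exact p of the 210 arrangements left is 0.00476, so the smaller groups and the removed libraries cannot be told apart.

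**Figure D3:**
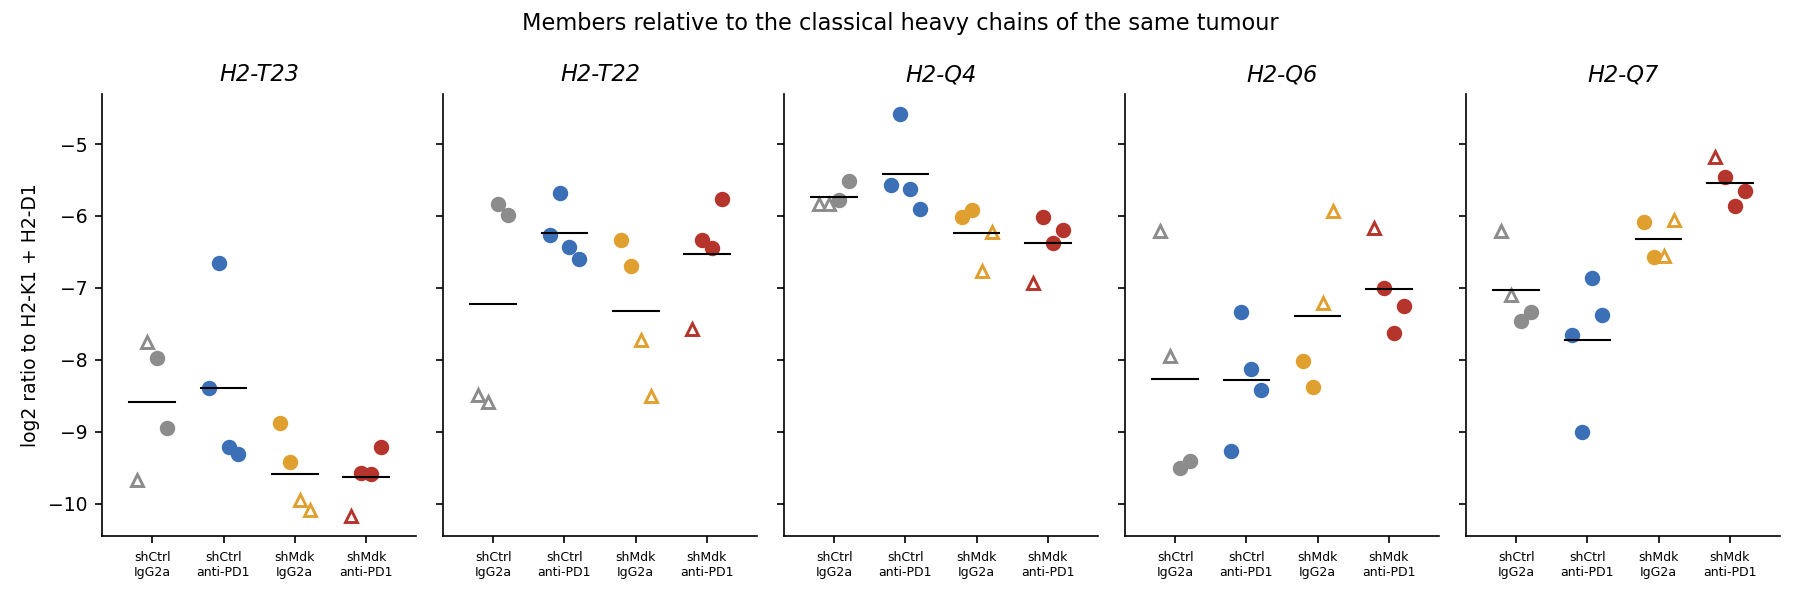
Log2 ratio of each non-classical gene to the sum of H2-K1 and H2-D1 in the same tumour, by group. Lines are group means (n = 4), and open triangles are tumours with a positive GC slope. H2-Q7 has its highest group mean, -5.54, in shMdk anti-PD1 tumours, while the H2-Q4 ratio is lower in every shMdk tumour than in any shCtrl tumour of its antibody. The share of all genes whose ratio separates in this way was not computed.

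Tumours with positive and other GC slopes differed in opposite directions for different members, and the part of the GC trend in these values was not tested. Within shCtrl IgG2a, the tumours with a positive slope had 8.53 and 9.01 normalised counts of H2-T22 against 78.5 and 96.1 in the other pair. H2-Q4 showed the same direction with 61.9 and 62.9 against 99.9 and 110. H2-Q6 showed the reverse, with 13.9 and 47.3 against 6.46 and 6.66. In shMdk IgG2a tumours H2-T22 was at 17.9 and 52.1 against 90.0 and 102, and H2-Q6 at 74.9 and 111 against 27.3 and 31.2. H2-Q7 overlapped between the kinds of tumour in both IgG2a groups, at 25.6 and 47.3 against 30.4 and 30.5 in shCtrl, and at 102 and 119 against 98.2 and 121 in shMdk tumours. In shMdk anti-PD1 tumours the 1 tumour with a positive slope had the highest H2-Q7 value, 465 against 247 to 370, and the highest H2-Q6 value, 232 against 72.0 to 127. The shCtrl anti-PD1 group held no tumour with a positive slope.

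**Figure D4:**
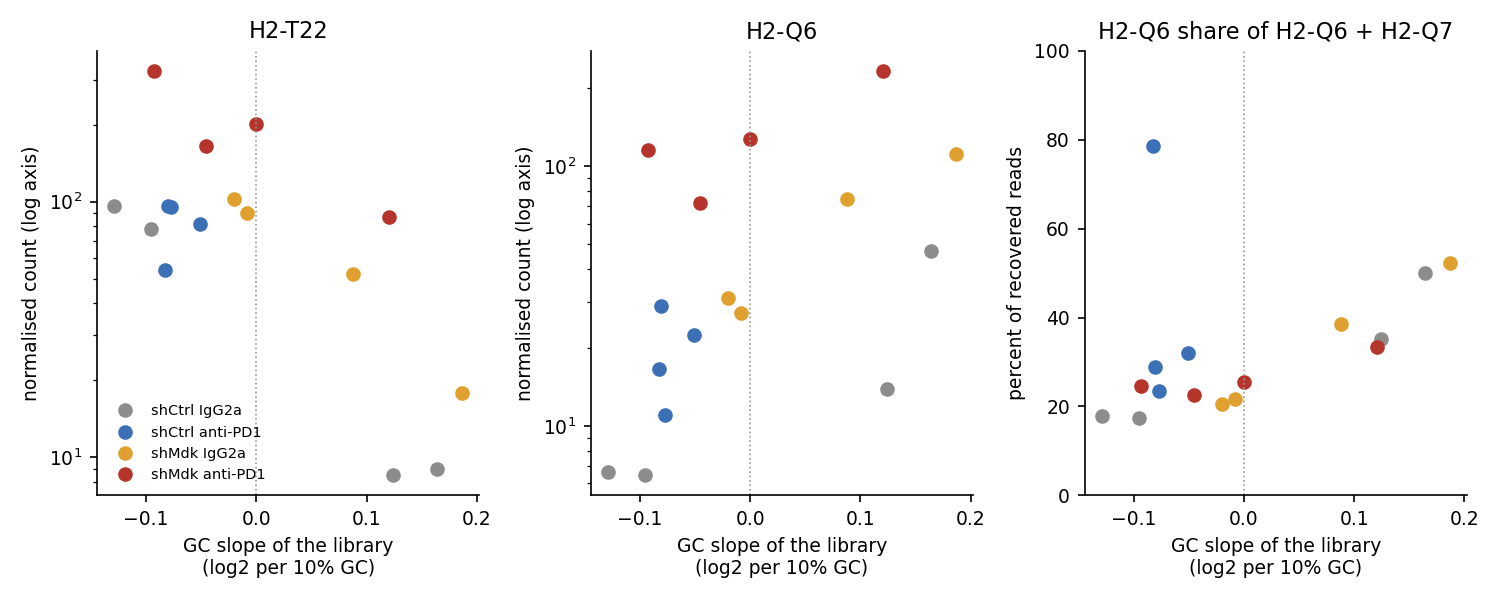
Normalised counts of H2-T22 and H2-Q6 (log axes) and the H2-Q6 share of H2-Q6 plus H2-Q7 reads (percent), each against the GC slope of the library, in log2 units per 10% GC. Points are tumours, coloured by group, and the dotted line marks a slope of 0. To the right of it H2-T22 is at 8.53 to 87.4 and the H2-Q6 share at 33.3% to 52.2%.

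Marker sums of leukocytes, macrophages, T cells, NK cells, B cells, endothelium and fibroblasts had higher medians in shMdk than in shCtrl tumours under both antibodies. For fibroblasts the IgG2a medians were close, at 1304 and 1317. The sums of dendritic cell, neutrophil and melanoma markers were not higher by median under both antibodies. The sum of 5 leukocyte markers, all 5 of them listed, was 159 to 225 normalised counts in shCtrl IgG2a, 134 to 386 in shCtrl anti-PD1, 404 to 877 in shMdk IgG2a and 851 to 1503 in shMdk anti-PD1 tumours. The 8 macrophage and monocyte markers summed to 511 to 1326, 440 to 1791, 1698 to 4115 and 3625 to 8476 in that order, with none at 0. For T cells 5 of 7 markers were listed (Cd3g and Cd4 were not), with sums of 3.804 to 37.1, 1.501 to 35.9, 63.1 to 118 and 84.7 to 267. For NK cells 2 of 5 were listed, Klrk1 and Nkg7, at 0.923 to 12.4, 2.76 to 78.1, 32.7 to 59.0 and 39.8 to 112. Ncr1, Klrb1c and Klrd1 were not listed, and the sum of 78.1 in 1 shCtrl anti-PD1 tumour was Klrk1 alone. For B cells (2 of 4 listed) the sums were 69.2 to 105, 76.4 to 114, 110.05 to 153 and 94.1 to 131. Dendritic cell markers (2 of 4) were at 70.2 to 159, 75.3 to 134, 110.2 to 142 and 68.6 to 139, and neutrophil markers (3 of 4) at 22.8 to 86.7, 8.37 to 291, 18.96 to 61.2 and 51.9 to 422. Among non-immune cells, fibroblast markers (3 of 5) were at 815 to 1818, 353 to 1870, 925 to 1744 and 1211 to 9340, and the 4 endothelial markers at 262 to 434.5, 299 to 515, 350.2 to 715 and 518 to 1238. The fibroblast and endothelial sums had their highest medians in shMdk anti-PD1 tumours. The 7 melanoma markers summed to 134737 to 187437 in shCtrl and 107394 to 146591 in shMdk tumours. The part of these cells in the H2-Q6 and H2-Q7 values was not tested, and in bulk tumours a change in the number of cells of a type and in the RNA per cell cannot be told apart.

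Klrc1, which encodes the NKG2A receptor of Qa-1, rose in shMdk tumours under anti-PD1. Of 14 receptor genes listed, 5 were tested: 0 passed under IgG2a, 1 rose under anti-PD1 and 2 rose averaged over both antibodies, with 0 lower. The shares of all genes called there were 1.74%, 5.93% and 8.4%. Klrc1 was at 3.32 ± 4.29 and 19.99 ± 10.2 under IgG2a and at 2.05 ± 2.59 and 31.5 ± 18.4 under anti-PD1 (shCtrl, then shMdk, SD, n = 4). Its log2 fold change was 2.83 ± 0.80 under IgG2a (limma adjusted p = 0.0978), 3.67 ± 0.80 under anti-PD1 (0.00965) and 3.25 ± 0.56 averaged (9.80e-04). Cd8a, the CD8 alpha chain, had means of 1.02 (IgG2a) and 1.83 (anti-PD1) with the control hairpin and 9.59 and 12.05 with the Mdk hairpin (log2 fold change 2.16 ± 0.55 averaged, adjusted p = 0.0183). Both genes had shCtrl means under the filter of 5 and were tested only through their higher shMdk values, so their calls depend on the filter. Klrd1, which encodes the CD94 partner of NKG2A, has no entry in the table used.

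Qa-1 and the classical chains take their peptides from the same supply and loading factors, and some genes of these factors rose in shMdk tumours. All 15 listed were tested: 7 rose under IgG2a, 6 under anti-PD1 and 9 averaged over both antibodies, with 0 lower. In those comparisons 1.74%, 5.93% and 8.4% of all genes were called. Median log2 fold changes of the list were 0.90, 0.90 and 0.997. Under IgG2a the immunoproteasome subunit gene Psmb8 rose by 2.01 ± 0.36, the peptide transporter gene Tap1 by 1.78 ± 0.28 and Psmb10, a further immunoproteasome subunit, by 1.70 ± 0.30. Under anti-PD1 the largest rises among those that passed were Tapbp (1.69 ± 0.34), which encodes the loading factor tapasin, Tap1 (1.66 ± 0.28) and Nlrc5 (1.41 ± 0.32), the class I transactivator. Averaged, Tap1 was at 1.72 ± 0.20, Psmb9 at 1.68 ± 0.37 and Tapbp at 1.67 ± 0.24. Among genes of the list that were not called, Tap2 was at -0.55 ± 1.20 under IgG2a and -0.27 ± 1.20 under anti-PD1.

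Other non-classical class I genes were mostly not called. Of 30 listed, 12 were in the table and tested, with 0 higher and 1 lower under IgG2a, 1 higher and 0 lower under anti-PD1, and 3 higher and 1 lower averaged. Beside these, 1.74%, 5.93% and 8.4% of all genes were called. The median of these 12 was 0.19, 0.74 and 0.36 in those comparisons. H2-Q5, a Q region neighbour that shares 3′ sequence with H2-Q7, rose under anti-PD1 from 1.13 ± 1.70 to 12.50 ± 4.45 normalised counts (log2 fold change 2.91 ± 0.62, limma adjusted p = 0.00825). H2-Q5 and H2-M2 exceeded a mean of 5 only in shMdk anti-PD1 tumours and passed the filter through that group, so their calls and the counts that hold them depend on it. Azgp1, which encodes a class I-like lipid-binding glycoprotein, fell under IgG2a (-1.04 ± 0.25, adjusted p = 0.0445). Averaged over antibodies H2-M2 (2.10 ± 0.55), H2-Q5 (2.06 ± 0.44) and the antibody-recycling receptor gene Fcgrt (0.81 ± 0.23) rose, and Azgp1 fell by 0.80.

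Interferon-related genes moved in the same comparisons. Of 15 interferon receptor and factor genes tested, 3 rose under IgG2a, 8 under anti-PD1 and 8 averaged, with 0 lower and medians of 0.45, 0.81 and 0.50. The transcription factor genes Irf8 and Irf1 rose under IgG2a by 2.49 ± 0.32 and 1.98 ± 0.32, and under anti-PD1 Irf8 rose by 2.96 ± 0.32, Irf1 by 2.05 ± 0.32 and Irf7 by 1.72 ± 0.31. Of 14 interferon gamma induced genes tested, 9, 11 and 12 rose in these comparisons and 0 fell, with medians of 2.74, 2.76 and 2.75. Both lists stand beside 1.74%, 5.93% and 8.4% of all genes called. The guanylate-binding protein gene Gbp4 rose by 4.76 ± 0.70 under IgG2a and 4.13 ± 0.70 under anti-PD1. Tgtp1, called under IgG2a, had a shCtrl IgG2a mean of 1.29, under the filter of 5, against 44.0 in shMdk IgG2a tumours. The count under IgG2a that holds it depends on the filter. These lists were chosen with earlier results of these samples known, so their direction is no independent evidence.

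**Figure D5:**
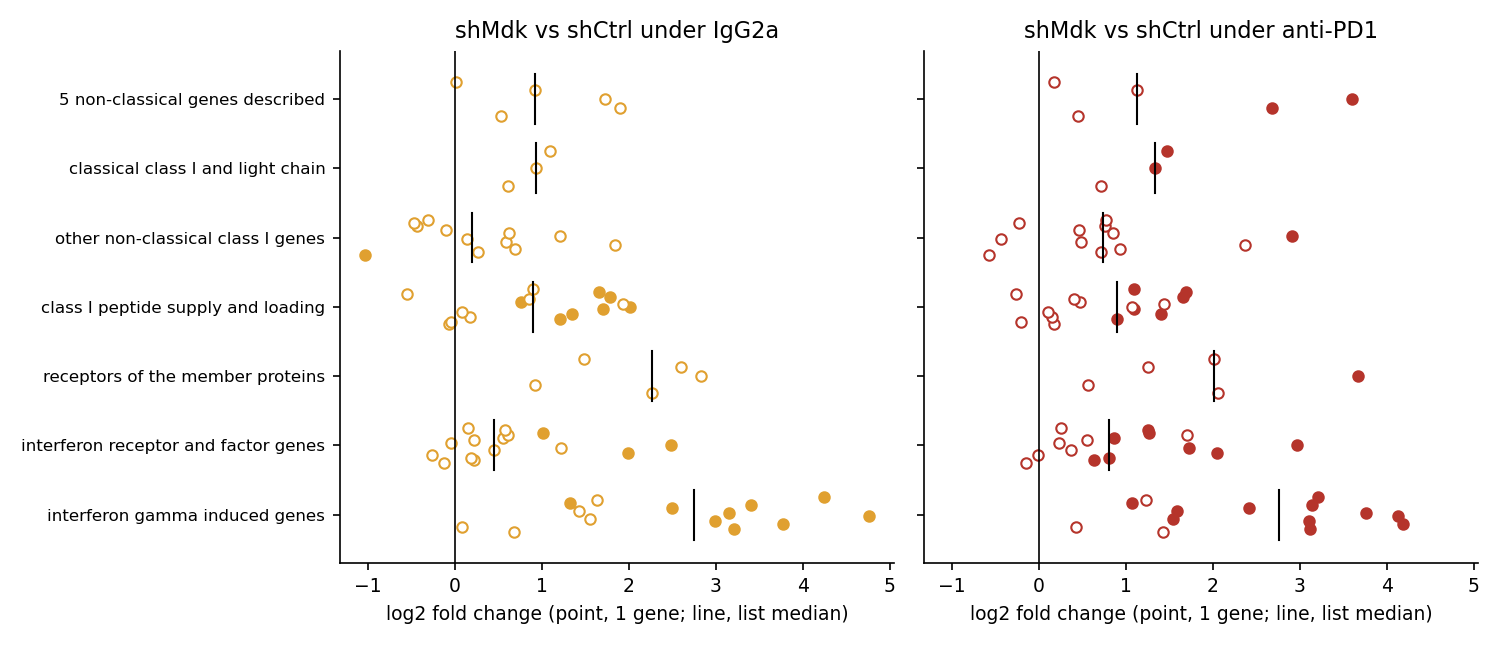
Log2 fold changes of shMdk against shCtrl for each gene of 7 lists, under IgG2a (left) and anti-PD1 (right). Points are genes, filled at a limma adjusted p under 0.05, and black lines are list medians. The 5 genes described range from 0.01 to 1.89 in the left panel and from 0.17 to 3.60 in the right panel.

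The members did not vary together as 1 set across the 16 tumours. The following Pearson correlations of log2 values describe tumours that share their group, library and GC trend, and carry no test. H2-Q4 and H2-T22 had r = 0.92, and 0.88 after group means were subtracted. H2-Q6 and H2-Q7 had r = 0.81, which was 0.31 within groups. H2-Q7 and H2-K1 had r = 0.96, and 0.90 within groups. H2-Q6 ran against H2-T22 and H2-T23 within groups (r = -0.76 in both pairs).

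Among 10767 genes with a mean of at least 20 normalised counts, genes among the 3 most like each member over the 16 tumours were named by Pearson r. For H2-Q7 they included Ifi209 (0.97) and Clec7a (0.97), and for H2-Q6 Ifitm1 (0.95), Vsir (0.95) and Ly6c1 (0.95). For H2-Q4 they were Plau (0.93), Cpq (0.91) and Cst3 (0.91), and for H2-T22 Cst3 (0.97), Zfp36l2 (0.97) and Rbms1 (0.96). For H2-T23 they were Trak2 (0.89), Hagh (0.89) and Plscr4 (0.88). With group means subtracted, Atp11a led for H2-Q7 (0.96), with Cfp (0.94) also among the closest 3, and Rbms1 led for H2-T22 (0.98). The closest genes within groups were Foxr2 for H2-Q4 (0.95), Armcx2 for H2-Q6 (0.94) and AI463229 for H2-T23 (0.89).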

How the data were processed

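Poly(A) RNA of 16 tumours was sequenced from 3′ ends with a stranded kit (500 ng RNA each, per the labels' protocols), and 4 tumours of each hairpin and antibody formed a group. Per the submitters' processing notes, alignment to GRCm38 (mm10) used Bowtie 1.0.0 and TopHat2 2.0.10, with SAMtools 0.1.19 and FastQC 0.11.0 for handling and quality, HTSeq for counting and DESeq2. The deposited values are a normalised signal, the authors' counts over a DESeq2 size factor per tumour; 100% of values were whole multiples of 1 read within 0.001, so the authors' counts could be recovered, and columns left unused numbered 0. The main test was limma 3.58.1 (R 4.3.3, variance trend) on log2(value + 1) of genes with a mean of at least 5, all 16 tumours sharing the spread, with Benjamini-Hochberg adjusted p under 0.05; the added 1 understates changes of low genes. Recovered counts were also tested with edgeR 4.0.16 and DESeq2 1.42.0, and single values with two-sided exact permutation tests (4 against 4 give at best p = 0.0286). Each fit was checked on simulated data. Errors are SD beside means and SE beside fold changes. Alternatives covered the pseudocount, filters, scaling, the groups in the fit, summing H2-Q6 and H2-Q7, and leaving out tumours. Other non-classical genes of the lists without an entry were not analysed here.

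Members, lists and motifs were chosen with earlier results of these data known. The 5 members were named in every comparison, and from each list at most 3 genes that rose most and 3 that fell most among those that passed, or else the largest change; some genes that this rule names are not reported here. Likeness used genes with a mean of at least 20, leaving out Gm, Rik and pseudogene models. Hairpin fold changes of H2-Q4, H2-Q6, H2-Q7 and H2-T22 are also given without libraries picked by a GC slope over the last 300 bases of transcripts. Promoters were 250 bases before the RefSeq start, trimmed where the annotated gene begins further upstream.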

Additional observations from a re-analysis of the deposited data

How the results depend on the processing

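The rises of H2-Q6 and H2-Q7 under anti-PD1 and averaged over both antibodies kept their direction and stayed past the threshold in all alternatives run, including each left-out tumour. Of 634 alternative fold changes of members, 589 kept their direction and side of the threshold, 12 newly passed and 33 turned sign. Of 630 alternative ratios, 581 kept both, 4 no longer passed, 3 newly passed and 42 turned sign. The cause of these changes was not tested. For the ratios, leaving out the tumours with a positive GC slope or rich in Gm42418 was chosen after seeing the data.

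Under IgG2a, where 0 members passed, 1 passed with only the groups compared in the fit, with edgeR, with DESeq2 and without the Gm42418-rich tumours, 2 with H2-Q6 and H2-Q7 summed (1 row for both), and 0 to 1 when a tumour was left out (1 without shCtrl IgG2a tumour 1). For anti-PD1 in shMdk tumours 1 passed with only the groups compared, with DESeq2 and without the Gm42418-rich tumours. Of the ratios to classical chains or B2m, 3 passed, 4 with a pseudocount of 5 (H2-T23 to classical chains added), 2 without the Gm42418-rich tumours (H2-Q7 to classical chains lost), 0 without the tumours with a positive GC slope and 3 to 5 when a tumour was left out (5 without shCtrl IgG2a tumour 1).

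Signs turned for these fold changes. H2-T23 under IgG2a was -0.023 with a pseudocount of 5, -0.14 with edgeR, -0.15 with DESeq2 and -0.19 without the Gm42418-rich tumours. For anti-PD1 in shCtrl tumours, H2-Q7 was 0.31 with edgeR, 0.28 with DESeq2, 0.11 summed and 0.59 without the Gm42418-rich tumours, and H2-T22 was -0.12 without the tumours with a positive GC slope. In the difference between antibody effects, H2-Q4 was 0.20 without those tumours.

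Log2 ratios that turned without the Gm42418-rich tumours were H2-T23 to classical chains for anti-PD1 (-0.38 in shCtrl, 0.19 in shMdk), H2-T23, H2-Q6 and H2-Q7 to B2m for anti-PD1 in shCtrl (-0.074, -0.032 and 0.040) and H2-T22 to B2m under IgG2a (-0.10). Without the tumours with a positive GC slope they were H2-T22 to classical chains (0.063 for the hairpins under anti-PD1, -0.33 for anti-PD1 in shCtrl), H2-T22 to B2m (-0.27 under IgG2a, -0.28 for anti-PD1 in shCtrl), H2-Q4 to B2m under IgG2a (0.0079) and H2-Q6 to classical chains for anti-PD1 in shCtrl (1.16).

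Leaving out 1 tumour at a time, fold changes that turned in some fits ranged for H2-T23 from -0.44 to 0.33 under IgG2a, -0.011 to 0.38 under anti-PD1, -0.14 to 0.25 averaged and -0.16 to 0.61 in the difference between antibody effects. In that difference H2-T22 ranged from -0.37 to 0.75 and H2-Q4 from -0.21 to 0.10, and H2-Q7 for anti-PD1 in shCtrl from -0.65 to 0.59. Ratios to classical chains ranged from -0.38 to 0.50 (H2-T23, anti-PD1 in shCtrl), -0.22 to 0.19 (H2-T23, anti-PD1 in shMdk), -0.54 to 0.37 (H2-T22, IgG2a), -0.54 to 0.063 (H2-T22, hairpins under anti-PD1), -0.41 to 0.043 (H2-T22, averaged), -0.33 to 0.035 (H2-Q4, anti-PD1 in shMdk) and -0.43 to 0.66 (H2-Q6, anti-PD1 in shCtrl). Ratios to B2m ranged from -0.074 to 0.67 (H2-T23), -0.19 to 0.80 (H2-Q6) and -0.78 to 0.040 (H2-Q7) for anti-PD1 in shCtrl, and from -0.18 to 0.81 (H2-T22) and -0.24 to 0.050 (H2-Q4) under IgG2a. H2-T23 lay below the filter at a mean of 20 and has no value there. No paired analysis was possible because the replicate numbers were given in accession order and pair no tumours. H2-T23 had the fewest reads, 3 to 34 per tumour.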

Other observations

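H2-M2, a class I-like gene of the H2-M region, had 2 and 6 reads over the shCtrl IgG2a and shCtrl anti-PD1 groups, and 17 and 70 reads over the shMdk groups. Mr1, which encodes the chain that presents vitamin B metabolites to MAIT cells, had log2 fold changes of -0.47 ± 0.31 under IgG2a and -0.23 ± 0.31 under anti-PD1 and did not pass (limma adjusted p = 0.740 and 0.780). H2-M3, which presents formylated peptides, was at 15.2 ± 5.34, 23.8 ± 6.04, 22.4 ± 4.06 and 38.7 ± 19.9 normalised counts in shCtrl IgG2a, shCtrl anti-PD1, shMdk IgG2a and shMdk anti-PD1 tumours (SD, n = 4). Klrc2, the gene of the activating partner NKG2C, held 4, 8, 20 and 51 reads over these groups in the same order, and lay below the filter on low values.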
